A study of Mus musculus with 4 samples.

Results

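Cytochrome P450 enzymes are the genes with the prefix Cyp. They were represented on the arrays by 102 of 45101 probe sets, chosen by their gene symbol on the platform: Cyp followed by a number, a letter and a number, or Cyp51. Of these probe sets 98 carried 1 symbol and stood for 73 of the 18193 genes with a symbol of their own. Of the 73, 1 is a pseudogene (Cyp4f41-ps) and 19 had more than 1 probe set. The 4 remaining probe sets were listed under several genes each (Cyp4a31 with Cyp4a10, Cyp2a5 with Cyp2a4, Cyp4f37 with Cyp4f16, and Cyp3a41b with Cyp3a41a), and their signal cannot be assigned to either gene. The 4 Cypt probe sets, whose symbols only look alike, were left out.

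P450 enzymes are heme proteins that insert oxygen into lipids, steroids, vitamins and drugs. Those of the endoplasmic reticulum take electrons from P450 reductase, and those of mitochondria from ferredoxin. In the kidney, most of them are made in proximal tubule cells, where family 4 enzymes hydroxylate fatty acids, family 2 epoxygenases oxidise arachidonic acid, and a pair of mitochondrial enzymes switches vitamin D on (Cyp27b1) and off (Cyp24a1).

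Kidney RNA of female FVB/NJ mice was measured on 4 arrays, 1 for each of 4 groups: OVE26 transgenic diabetic mice after uninephrectomy, the removal of 1 kidney (OVE-uni), or sham surgery (OVE-sham), and nondiabetic control littermates after uninephrectomy (FVB-uni) or sham surgery (FVB-sham). Surgery was done at 2 months and the kidneys were taken at 4.5 months, 10 weeks later, after perfusion with buffered saline. OVE26 mice are a transgenic model in which damage to pancreatic beta cells, where the transgene is expressed, causes insulin-deficient diabetes. Each array held RNA pooled from 4 mice, which leaves the variation from mouse to mouse unmeasured. Having only 4 arrays limits how precise any value can be.

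Signals are the deposited linear array intensities. Differences are in log2(signal + 26.4), an offset taken at the 20th percentile of the signals. This makes the differences of dim genes smaller than their ratios. A gene counted as above the expression filter when its mean reached 7.06 on this scale, the median of all probe sets, which is near a signal of 106.7. With 1 array a group, differences between 2 groups carry no p-value and are described by size, with 2-fold as the threshold. The words rose and fell are kept for genes that passed limma (Benjamini-Hochberg adjusted p below 0.05 over all 11206 genes above the filter) in a model with diabetes and surgery as additive factors, which uses all 4 arrays. That model has 1 residual degree of freedom, and the standard errors (SE) come nearly all from other genes of like brightness. Its calls depend on that choice: without a trend of limma's prior variance over brightness, without the expression filter, or with probe sets averaged by gene, 0 P450 genes passed with diabetes, against 5 as reported (7, 10 and 6 had an unadjusted p below 0.05 in those 3 fits).

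Signals of array controls differed between the arrays. All 9 probe sets of the bacterial and phage spike-in controls were brighter on the OVE-sham and FVB-uni arrays than on the OVE-uni and FVB-sham arrays, with geometric means of 3576 in OVE-uni, 4804 in OVE-sham, 4890 in FVB-uni and 3872 in FVB-sham. The 20th percentile of all signals was ordered alike, at 23.3, 29.8, 30.1 and 23.7. The 3 probe sets of 18S ribosomal RNA had geometric means of 21341, 14962, 11554 and 11337 in the same order of groups, and the actin 3′/5′ ratio was 3.38, 3.72, 3.49 and 2.78. Beside the results below, these values moved with some groups, and their part in the results was not tested. The kidney label was borne out by its markers: 11 of 12 proximal tubule genes and 6 of 6 distal tubule and collecting duct genes were above the filter. The summed signal of the proximal tubule genes was 117724 in OVE-uni, 156703 in OVE-sham, 165431 in FVB-uni and 159345 in FVB-sham. In tissue RNA, fewer cells of a type and less RNA per cell cannot be told apart.

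Of the 73 P450 genes with a symbol of their own, 32 lay above the filter, with signals between 49.9 and 24594. The other 41 had signals between 1.7 and 173.9 and are described only as dim. Just inside the filter were Cyp3a13, with signals between 85.7 and 130.5, and Cyp39a1, between 77.3 and 143.8. Just outside were Cyp21a1 (74.0 to 125.0) and Cyp2u1 (61.0 to 137.4). Family 4 had 7 genes above the filter and family 2 had 14. Subfamilies 2B, 1A and 11B had 0 of 4, 0 of 2 and 0 of 2 genes above it, and 3A had 1 of 5. The heat map gives the 32 genes and 2 shared probe sets in every group.

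**Figure D1:**
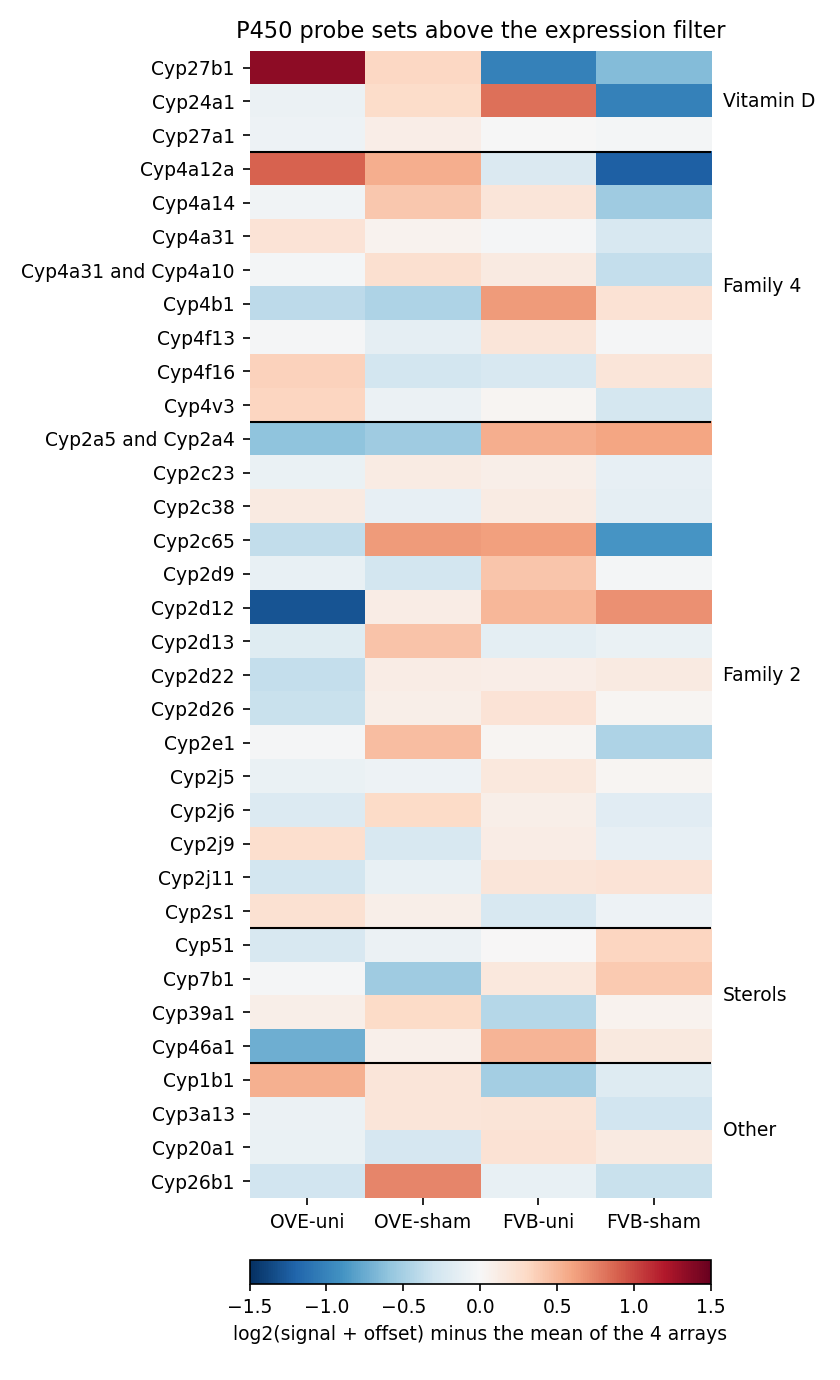
Heat map of log2(signal + 26.4) minus the mean of the 4 arrays for the 32 P450 genes above the expression filter and 2 bright probe sets shared by 2 genes (rows, grouped by role) in the 4 groups (columns, 1 array each). Cyp27b1 and Cyp4a12a are highest in OVE-uni, Cyp24a1 is highest in FVB-uni, and Cyp2d12 is lowest in OVE-uni.

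Diabetes was accompanied by higher signal of the vitamin D activating enzyme, of a fatty acid hydroxylase and of Cyp1b1, and by lower signal of Cyp2d12 and Cyp4b1. In limma 5 of the 32 genes passed, against 2.2% of all 11206 genes: 3 rose (1.47% of all genes) and 2 fell (0.732%). At an unadjusted p below 0.05, 4 genes were higher (5.42% of all genes were) and 6 lower (4.06%). Between the sham arrays 4 genes differed by 2-fold or more (1.24% of all genes), 4 of them higher with diabetes (0.794%) and 0 lower (0.446%). Between the uninephrectomised arrays 6 did (3.18%), 3 higher (2.14%) and 3 lower (1.04%). Among the 4 of the sham arrays, Cyp2c65 passed the filter only through OVE-sham and FVB-uni, where it was high. Its place in that count is a description only. On the log2 scale with the offset, only Cyp4a12a of the 32 genes passed 2-fold in both arms. Cyp27b1 fell just short in the sham arm (0.96), where its linear ratio was 2.08. Differences under 1.5-fold were found for 23 of the 32 genes in the sham arm (71.9%, against 92.5% of all genes) and for 24 in the uninephrectomised arm (75%, against 87.5%).

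**Figure D2:**
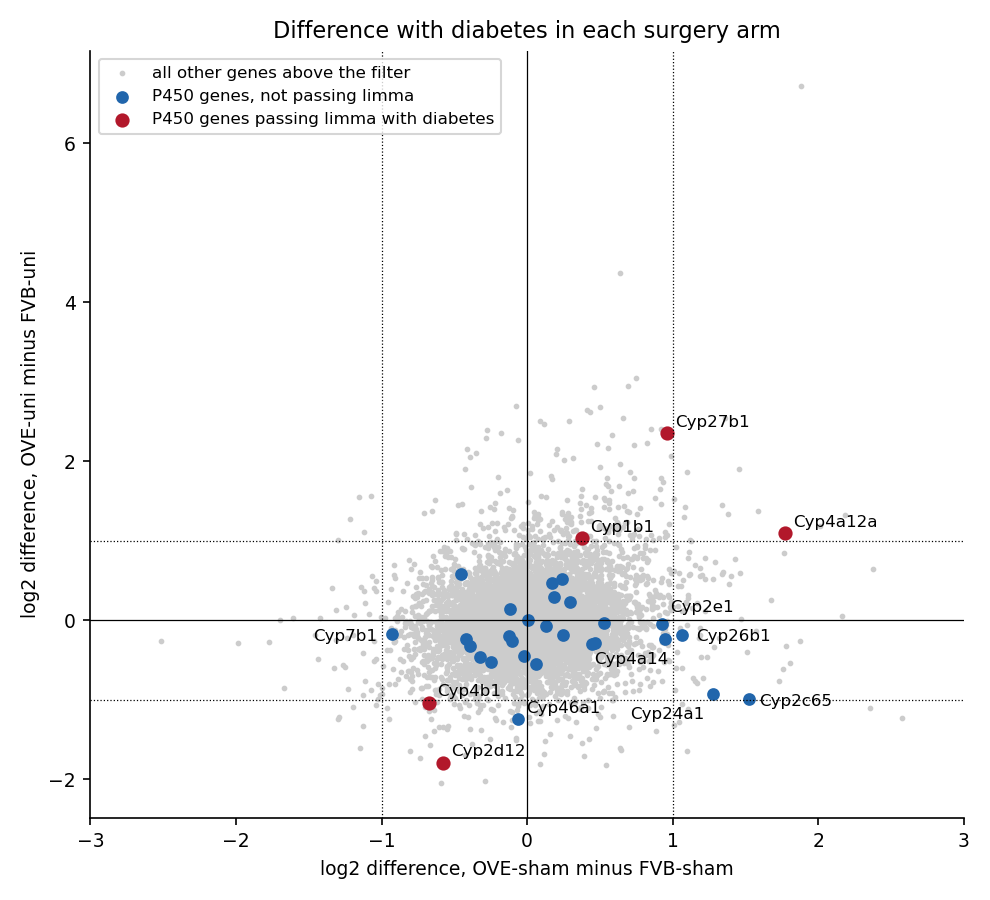
Log2 difference with diabetes in sham mice (x axis, OVE-sham minus FVB-sham) against that in uninephrectomised mice (y axis, OVE-uni minus FVB-uni) for the genes above the filter, with P450 genes in blue, or in red where they passed limma with diabetes. Dotted lines mark 2-fold; Cyp4a12a lies beyond both, while Cyp24a1 and Cyp2c65 lie to the right in sham and below 0 in uninephrectomised mice.

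Cyp27b1 encodes the mitochondrial 1-alpha-hydroxylase that makes the active hormone from circulating vitamin D. Its signal was 817.7 in OVE-uni, 385.5 in OVE-sham, 138.5 in FVB-uni and 184.9 in FVB-sham. Both diabetic arrays lay above both nondiabetic arrays, an order held by 6 of the 32 P450 genes (18.8%) and by 19.1% of all genes. The linear ratio was 5.90 between OVE-uni and FVB-uni and 2.08 between OVE-sham and FVB-sham. On the log2 scale Cyp27b1 rose by a mean of 1.66 ± 0.27 with diabetes (adjusted p = 3.1e-05 in limma); the sham arm gave 0.96 and the uninephrectomised arm 2.36. Uninephrectomy went with a higher signal in diabetic mice (1.04) and a lower one in nondiabetic mice (-0.36). The gene has 1 probe set.

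Cyp24a1 encodes the hydroxylase that starts the breakdown of active vitamin D and is itself a target of the vitamin D receptor. Its signal was 2005 in OVE-uni, 2582 in OVE-sham, 3820 in FVB-uni and 1047 in FVB-sham. FVB-sham was the lowest array, and the diabetic arrays lay between the nondiabetic ones. The log2 difference with diabetes was 1.28 in sham and -0.92 in uninephrectomised mice, and that with uninephrectomy was 1.84 in nondiabetic and -0.36 in diabetic mice. The mean differences did not pass limma (0.18 ± 0.21, adjusted p = 0.96 for diabetes; 0.74 ± 0.21, adjusted p = 0.10 for uninephrectomy). A second probe set, just under the filter, had signals of 54.8, 128.5, 169.5 and 87.5 in the same order of groups. It too was brightest in FVB-uni, and its arms of diabetes again had opposite signs (0.44 in sham, -1.27 in uninephrectomised mice), but here OVE-uni was lowest, and the mean difference with diabetes was -0.41. OVE-sham and FVB-uni, the brighter arrays for Cyp24a1, were also those with brighter spike-in controls (4804 and 4890, against 3576 in OVE-uni and 3872 in FVB-sham). The part of array brightness in the result was not tested.

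The other 2 vitamin D enzymes differed little or were dim. Cyp27a1, a mitochondrial sterol hydroxylase that can also act on vitamin D, had signals of 1080, 1228, 1138 and 1119 in OVE-uni, OVE-sham, FVB-uni and FVB-sham. Its differences with diabetes were 0.13 in sham and -0.07 in uninephrectomised mice. Cyp2r1, the main enzyme of the first vitamin D hydroxylation in liver, stayed under the filter with signals between 38.6 and 67.7.

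Of 15 other genes of the vitamin D axis 12 were above the filter, and 0 passed limma for either factor (0 and 1 had an unadjusted p below 0.05 for diabetes and uninephrectomy). Their median log2 difference with diabetes was 0.10 in sham and -0.39 in uninephrectomised mice, beside 0.01 and -0.01 over all 11206 genes. The median in uninephrectomised mice was -0.47 for the proximal tubule genes and -0.31 for the distal tubule and collecting duct genes. Lrp2, Cubn and Slc34a1 are in both the vitamin D and the proximal tubule lists. The vitamin D receptor gene Vdr had signals of 2108 in OVE-uni, 2571 in OVE-sham, 2730 in FVB-uni and 2185 in FVB-sham. S100g, which encodes the calcium-binding protein calbindin-D9k, a vitamin D target, had signals of 19345, 21874, 26245 and 16389, and the related Calb1 had 20374, 20828, 23604 and 16021. Of the 12 genes, 4 were brightest in FVB-uni (Calb1, Kl, S100g and Vdr), where Cyp24a1 was brightest, against 23.4% of all genes. Another 4 were brightest in FVB-sham (23.7% of all genes), 3 in OVE-sham (25.2%) and 1 in OVE-uni (27.7%). Calb1, S100g, Vdr, Rxra, Pth1r and Slc34a1 had OVE-sham and FVB-uni above both other arrays, and the rest of the 12 did not. That order held for 18.2% of all genes and for the spike-in controls. The part of array brightness in these values was not tested. The uptake receptor gene Lrp2 had a mean difference with diabetes of -0.34. For Rxra, the partner of the vitamin D receptor, the mean was -0.20, from 0.37 in sham and -0.76 in uninephrectomised mice.

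**Figure D3:**
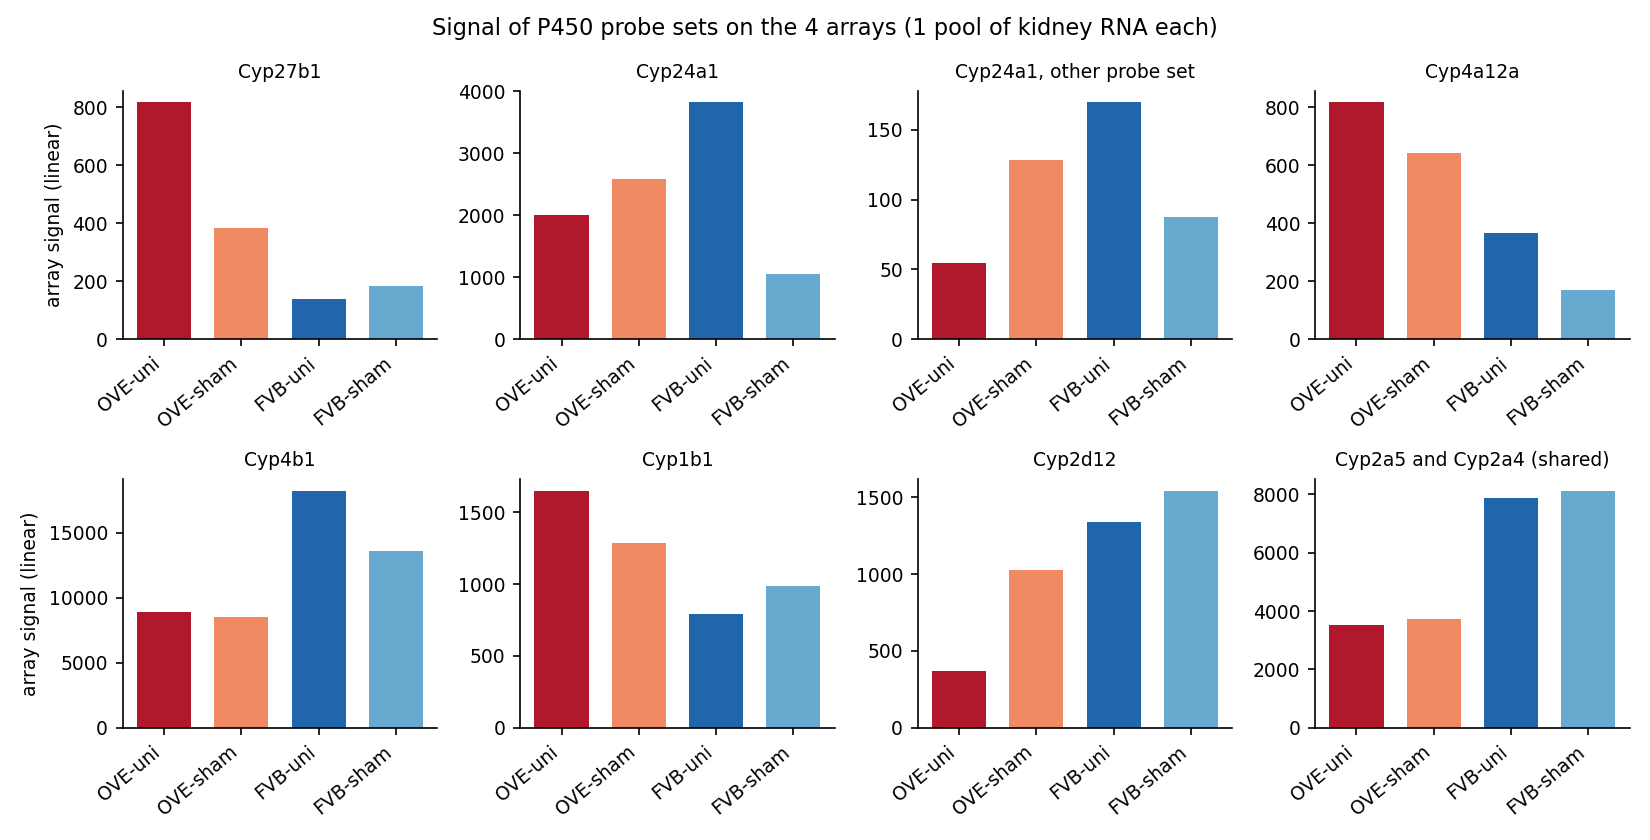
Linear array signal (y axis, from 0) of 8 P450 probe sets in the 4 groups, 1 array of pooled RNA each, so there are no error bars. Both diabetic arrays are above both nondiabetic arrays for Cyp27b1, Cyp4a12a and Cyp1b1 and below them for Cyp4b1, Cyp2d12 and the probe set shared by Cyp2a5 and Cyp2a4, while both Cyp24a1 probe sets are highest in FVB-uni.

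Family 4 enzymes hydroxylate the far end of fatty acids, and the Cyp4a genes are known targets of PPAR alpha, the fatty acid sensor. Cyp4a12a, whose enzyme makes the vasoconstrictor 20-HETE from arachidonic acid and is known for higher expression in male than female mouse kidney, had signals of 817.7 in OVE-uni, 643.2 in OVE-sham, 368.1 in FVB-uni and 169.9 in FVB-sham. The diabetic arrays did not overlap the nondiabetic ones. It rose by a mean log2 of 1.43 ± 0.23 with diabetes (limma SE, adjusted p = 2.2e-05), with 1.77 in sham and 1.10 in uninephrectomised mice. After uninephrectomy it was 1.01 higher in nondiabetic and 0.33 higher in diabetic mice, which did not pass limma (adjusted p = 0.29). Cyp4a12b is a near-identical copy that the platform does not name, so how the signal divides between them is uncertain. Other sex-biased kidney genes gave no call: of 3 above the filter 0 passed limma for diabetes (1 at an unadjusted p below 0.05), and the androgen-regulated Kap had signals of 28539 in OVE-uni, 32343 in OVE-sham, 49675 in FVB-uni and 48290 in FVB-sham.

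Cyp4a14 had signals of 15076 in OVE-uni, 20771 in OVE-sham, 17699 in FVB-uni and 10758 in FVB-sham, with FVB-sham lowest. Its log2 difference with diabetes was 0.95 in sham and -0.23 in uninephrectomised mice (mean 0.36 ± 0.20, limma adjusted p = 0.64). The probe set shared by Cyp4a31 and Cyp4a10 was ordered alike, with 30615 in OVE-uni, 36931 in OVE-sham, 34163 in FVB-uni and 24381 in FVB-sham. Its differences with diabetes were 0.60 and -0.16. Cyp4a14 and this probe set had OVE-sham and FVB-uni above both other arrays, the order of the spike-in controls. The part of array brightness was not tested. Cyp4a31 alone had signals of 3189, 2859, 2715 and 2329 in OVE-uni, OVE-sham, FVB-uni and FVB-sham. Its differences were 0.29 and 0.23 (limma adjusted p = 0.67). Near-identical copies exist for this gene too, so its signal is uncertain in the same way. A further probe set of Cyp4a31 gave a mean difference with diabetes of -0.24, opposite in sign to the first (0.26).

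Genes of the same fatty acid programme outside the P450 family were compared with them. Of 18 PPAR alpha targets 16 were above the filter, 3 rose with diabetes in limma (1.47% of all genes did) and 0 fell (0.732%). The 3 were Angptl4, an inhibitor of lipoprotein lipase (1.75 ± 0.18, adjusted p = 3.9e-10), Pdk4, which restrains glucose oxidation (1.31 ± 0.17, adjusted p = 3e-07), and the thioesterase gene Acot2 (0.60 ± 0.16, adjusted p = 0.023). The list's median with diabetes was 0.51 in the sham arm and -0.00 in the uninephrectomised arm, beside 0.01 and -0.01 for all genes. The peroxisomal enzyme gene Ehhadh had signals of 11849, 16391, 14304 and 11295 in OVE-uni, OVE-sham, FVB-uni and FVB-sham, and a mean difference with diabetes of 0.13. Ehhadh, Acaa1b, Acot3, Cpt2 and Slc25a20 had OVE-sham and FVB-uni above both other arrays, and the rest of the 16 did not. The spike-in controls and 18.2% of all genes had that order too. The part of array brightness in these values was not tested.

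Cyp4b1, a fatty acid hydroxylase that also activates lung toxins, was lower with diabetes although it lies in the same cluster on chromosome 4 as the Cyp4a genes. Its signals were 8881 in OVE-uni and 8491 in OVE-sham, against 18208 in FVB-uni and 13572 in FVB-sham, with no overlap. In limma it fell by 0.85 (log2, SE 0.18, adjusted p = 0.0013), with differences of -0.67 in sham and -1.03 in uninephrectomised mice. Neither uninephrectomy difference was large (0.42 in nondiabetic and 0.06 in diabetic mice).

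The other family 4 genes above the filter were Cyp4f13, Cyp4f16 and Cyp4v3. Cyp4f13 had differences with diabetes of -0.12 in sham and -0.20 in uninephrectomised mice, Cyp4v3 of 0.18 and 0.29, and Cyp4f16 of -0.46 and 0.58. None of them passed limma. Cyp4v3 was the family 4 gene with both uninephrectomy arrays above both sham arrays, at 495.2 in OVE-uni and 400.5 in FVB-uni, against 368.6 in OVE-sham and 321.3 in FVB-sham. That order was held by 3 of the 32 genes (Cyp2c38, Cyp2j9 and Cyp4v3) and by 13.6% of all genes. Cyp2c38 had signals of 106.0 in OVE-sham and 105.7 in FVB-sham, under the 106.7 of the filter. It passed the filter only through the uninephrectomy arrays, where it was high, so its order is a description only. Of the dim members, the probe set listed under Cyp4f37 and Cyp4f16 had signals between 56.4 and 124.0, and Cyp4f14, Cyp4f15, Cyp4f18, Cyp4f39, Cyp4x1 and the pseudogene Cyp4f41-ps stayed under the filter.

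Family 2 holds the main drug-metabolising enzymes and the arachidonic acid epoxygenases. Of its 14 genes above the filter, limma called 0 higher and 1 lower with diabetes. Their median was 0.03 in the sham arm and -0.28 in the uninephrectomised arm. The gene that fell was Cyp2d12, with signals of 369.4 in OVE-uni, 1024 in OVE-sham, 1342 in FVB-uni and 1543 in FVB-sham. The OVE-uni array stood far below the other 3. In limma it fell by 1.18 (log2, SE 0.19, adjusted p = 2.9e-05), and the arms gave -0.58 (sham) and -1.79 (uninephrectomised). Cyp2d12 was also the 1 P450 gene that passed for uninephrectomy (mean -0.80 ± 0.19, limma adjusted p = 0.026), from differences of -0.20 in nondiabetic and -1.41 in diabetic mice. That call was lost with median centring (limma adjusted p = 0.41) and in a fit over single probe sets (limma adjusted p = 0.48).

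The other Cyp2d genes share much sequence with Cyp2d12 and lie beside it on chromosome 15. All 5 Cyp2d genes above the filter had a negative difference with diabetes in uninephrectomised mice, from -1.79 for Cyp2d12 to -0.03 for Cyp2d13. In that comparison 22 of all 32 P450 genes were lower with diabetes and 10 higher, while 48.6% of all genes were higher. In sham mice the Cyp2d genes ranged from -0.58 to 0.53. Cyp2d26 had signals of 3457 in OVE-uni, 4650 in OVE-sham, 5054 in FVB-uni and 4458 in FVB-sham. Cyp2d22 had 801.0, 1120, 1106 and 1137, and its other probe set 796.7, 1138, 1093 and 964.6, so OVE-uni was lowest on both. The summed proximal tubule markers were lowest in OVE-uni too. In limma 1 of 11 fell with diabetes, against 0.732% of all genes (Slc22a8, an organic anion transporter gene, mean -0.72, adjusted p = 0.0077). The part of tubule cell content in these values was not tested.

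A shared probe set of family 2 was lower in both diabetic arrays. It is the one listed under Cyp2a5 and Cyp2a4, which encode a coumarin hydroxylase and a testosterone hydroxylase, and had signals of 3533 in OVE-uni and 3715 in OVE-sham, against 7896 in FVB-uni and 8125 in FVB-sham. Surgery made nearly no difference (-0.04 in nondiabetic and -0.07 in diabetic mice), and both diabetic arrays lay far below both nondiabetic arrays. The log2 differences with diabetes were -1.12 in sham and -1.15 in uninephrectomised mice. Probe sets with several symbols were not part of the fit by gene. In a fit over single probe sets, added after the data had been seen, the mean was -1.14 ± 0.15 (limma adjusted p = 0.0038). The promoters of the 2 genes are also alike. RefSeq's sequences, 250 bases before to 50 after the start site, lie at chr7:26306942-26307241 (Cyp2a4) and chr7:26835089-26835388 (Cyp2a5), both on the plus strand of GRCm38.p6. When they were aligned, 294 of the 300 bases of a window were the same (98%). They are printed 5′ to 3′ as a description of the pair. The sequence that the shared probes read was not compared. Capitals mark matches to TATAAA and to AGGTCA, a core bound by many nuclear receptors, which is printed as its reverse complement where it lies on the other strand.
Cyp2a4: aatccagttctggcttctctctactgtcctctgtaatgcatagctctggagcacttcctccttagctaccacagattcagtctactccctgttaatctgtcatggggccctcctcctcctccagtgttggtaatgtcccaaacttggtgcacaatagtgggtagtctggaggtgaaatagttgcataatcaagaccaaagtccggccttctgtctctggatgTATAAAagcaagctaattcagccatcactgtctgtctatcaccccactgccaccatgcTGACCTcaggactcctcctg
Cyp2a5: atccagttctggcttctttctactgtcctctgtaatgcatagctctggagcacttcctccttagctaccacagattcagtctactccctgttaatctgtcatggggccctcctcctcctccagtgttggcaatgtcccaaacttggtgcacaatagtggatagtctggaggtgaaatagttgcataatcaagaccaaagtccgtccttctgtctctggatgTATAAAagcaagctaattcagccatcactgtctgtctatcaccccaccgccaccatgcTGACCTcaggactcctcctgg
The TATAAA match starts 28 bases before the start site in Cyp2a4 and 29 before it in Cyp2a5. The AGGTCA match lies after the start site, by 30 bases in Cyp2a4 and 29 in Cyp2a5. On either strand, TATAAA was found in 13.6% and AGGTCA in 16.3% of all 32851 promoters of the same length.

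The 2J and 2C genes, among them arachidonic acid epoxygenases, gave no limma call with diabetes. Cyp2j5, a renal arachidonic acid epoxygenase, had signals of 20459 in OVE-uni, 20822 in OVE-sham, 24594 in FVB-uni and 22363 in FVB-sham. Both diabetic arrays were below both nondiabetic ones, as for 10 of the 32 P450 genes (31.2%, against 18.6% of all genes), but the size was small (-0.10 in sham and -0.27 in uninephrectomised mice, limma adjusted p = 0.95). A second probe set had signals of 3582, 3386, 3519 and 4093 and differences of -0.27 and 0.03. Cyp2j11 had 7706 in OVE-uni, 8639 in OVE-sham, 10609 in FVB-uni and 10810 in FVB-sham, a mean difference of -0.39 ± 0.17 (limma adjusted p = 0.34). Cyp2j6 differed by 0.45 in sham and -0.30 in uninephrectomised mice, and Cyp2j9 by -0.12 and 0.15. Cyp2c23 had signals between 500.3 and 599.9 and Cyp2c38 between 105.7 and 131.8.

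Cyp2c65 stood apart among the Cyp2c genes, with signals of 82.3 in OVE-uni, 192.9 in OVE-sham, 190.1 in FVB-uni and 49.9 in FVB-sham. Its difference with diabetes was 1.52 in sham and -0.99 in uninephrectomised mice. In OVE-uni and FVB-sham its signal was under the 106.7 of the filter. Cyp2c65 thus passed the filter, with a mean of 7.14, only through OVE-sham and FVB-uni, where it was high. Its 2-fold differences and its order of arrays are therefore descriptions only. Its probe set carries the suffix by which the platform marks probes shared between transcripts. So do the probe sets that stand for Cyp2c23, Cyp4v3 and Cyp7b1. The lowest signals of Cyp2c65 lie among the dim values that the offset shrinks. Of the 11 Cyp2c genes the other 8 were under the filter.

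Cyp2e1, which oxidises ethanol, acetone and other small molecules, had signals of 5824 in OVE-uni, 8126 in OVE-sham, 6022 in FVB-uni and 4267 in FVB-sham. Only the sham arm showed a difference with diabetes near 2-fold (0.93), against -0.05 in uninephrectomised mice, and the mean of 0.44 ± 0.17 did not pass limma (adjusted p = 0.24). Cyp2e1 is also expressed in fat cells. The summed signal of 4 adipocyte markers was 13228 in OVE-uni, 26326 in OVE-sham, 5381 in FVB-uni and 14443 in FVB-sham. Among them 3 (Adipoq, Car3 and Fabp4) rose with diabetes (1.47% of all genes did) and 2 fell with uninephrectomy (0.178%) in limma. The part of fat tissue in the Cyp2e1 values was not tested. Cyp2s1 had signals between 342.5 and 482.5 and a mean difference with diabetes of 0.32.

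The order with OVE-sham and FVB-uni above both other arrays was common among P450 genes. It held for 10 of the 32 (31.2%), against 18.2% of all 11206 genes, and the opposite order for 1 (Cyp4f16), against 15%. The 10 were Cyp24a1, Cyp26b1, Cyp27a1, Cyp2c23, Cyp2c65, Cyp2d26, Cyp2e1, Cyp2j6, Cyp3a13 and Cyp4a14. Of these, Cyp2c65 and Cyp3a13 had signals under 106.7 in OVE-uni and FVB-sham, so they passed the filter only through OVE-sham and FVB-uni. Among dim genes the same order held for 14 of 41 P450 genes (34.1%) and for 26% of all 6987. The spike-in controls and the 20th percentile of signals had this order too, so for each of these genes the part of the array in the difference between arms was not tested. The signs of the 2 diabetes differences were opposite for 13 of the 32 genes (40.6%), against 47.6% of all genes. The difference between the 2 diabetes effects has no residual and no test. It was -2.20 for Cyp24a1, -1.18 for Cyp4a14 and -0.97 for Cyp2e1.

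**Figure D4:**
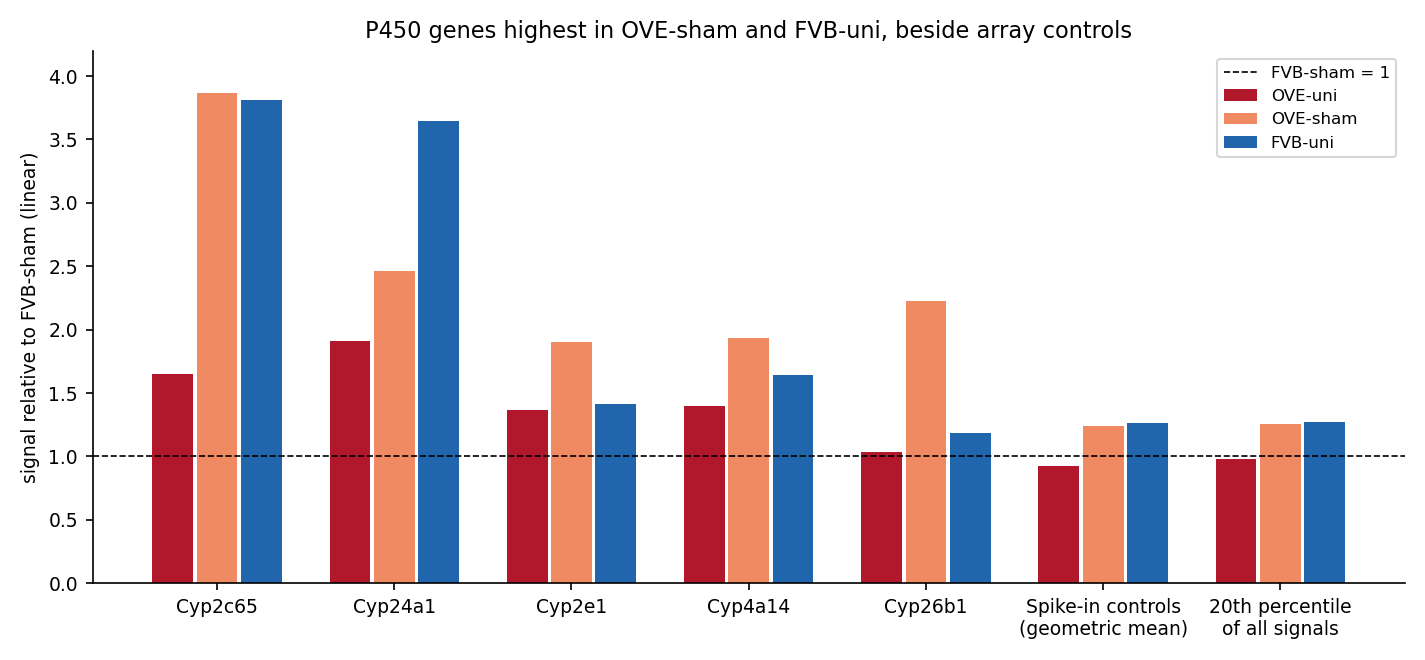
Signal relative to FVB-sham (y axis, linear, dashed line at 1) in OVE-uni, OVE-sham and FVB-uni for 5 P450 genes, the geometric mean of 9 spike-in control probe sets and the 20th percentile of all signals. OVE-sham and FVB-uni exceed OVE-uni for every item shown; Cyp24a1 reached 3.65 times FVB-sham in FVB-uni.

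Sterol and bile acid enzymes were next compared. Cyp51, the lanosterol demethylase of cholesterol synthesis, had signals of 5426 in OVE-uni, 5991 in OVE-sham, 6401 in FVB-uni and 8026 in FVB-sham. Both diabetic arrays were lower (-0.42 in sham and -0.24 in uninephrectomised mice), without passing limma (mean -0.33 ± 0.16, adjusted p = 0.48). Its other 2 probe sets gave mean differences of -0.21 and -0.42, the same sign. Over all P450 genes, 8 of 10 further probe sets above the filter shared the sign of their gene's first one. All of them were read on the same 4 arrays. Of 21 other genes of sterol synthesis and uptake 18 were above the filter, and 0 passed limma for either factor (3 had an unadjusted p below 0.05 for each). Their median with diabetes was -0.13 in the sham arm and 0.07 in the uninephrectomised arm. With diabetes the largest mean differences among them were those of Insig1 (-0.54), Ebp (-0.46) and Sqle (0.43). Their limma adjusted p was 0.12, 0.12 and 0.28. Insig1 restrains sterol synthesis, and Sqle is the squalene epoxidase gene. With uninephrectomy the largest were those of Fdps (0.68, limma adjusted p = 0.20) and Msmo1 (0.54, limma adjusted p = 0.34).

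Cyp7b1, which hydroxylates oxysterols and some androgens, had signals of 187.7 in OVE-uni, 122.8 in OVE-sham, 215.4 in FVB-uni and 256.9 in FVB-sham. Its difference with diabetes was -0.93 in sham and -0.18 in uninephrectomised mice. A second probe set gave -0.20 and -0.29. Cyp46a1, known as the cholesterol hydroxylase of neurons, had 85.5 in OVE-uni, 170.5 in OVE-sham, 238.7 in FVB-uni and 179.3 in FVB-sham, a difference of -1.24 in uninephrectomised and -0.06 in sham mice. The oxysterol hydroxylase gene Cyp39a1 had 121.8, 143.8, 77.3 and 118.0 in these groups. None of these 3 genes passed limma (adjusted p from 0.55 to 0.92). The bile acid enzyme genes Cyp7a1, which sets the rate of the classic pathway in liver, and Cyp8b1 had signals of at most 83.5 and 66.4.

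The steroid hormone enzymes of the adrenal gland were dim on every array. Cyp11a1, which makes the first steroid from cholesterol, reached at most 69.9, Cyp11b1 at most 109.9, the aldosterone synthase gene Cyp11b2 at most 57.5, Cyp17a1 at most 47.5 and Cyp21a1 at most 125.0. Of 7 other adrenal cortex markers 5 had a probe set, 1 of which (Star) was above the filter, and their summed signals were 225.5 in OVE-uni, 236.8 in OVE-sham, 274.7 in FVB-uni and 238.6 in FVB-sham. Liver markers were also low beside the kidney genes: 4 of 8 were above the filter, with sums of 1957, 1719, 1679 and 1243 in the same order, and the drug-metabolising Cyp3a11 and Cyp2c29 of liver stayed at or below 98.6 and 67.8. With diabetes, 1 liver marker rose (Apoc3) and 1 fell (Alb) in limma, against 1.47% and 0.732% of all genes.

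Cyp1b1, which oxidises oestrogens and polycyclic hydrocarbons and is a target of the aryl hydrocarbon receptor, had signals of 1648 in OVE-uni, 1285 in OVE-sham, 788.9 in FVB-uni and 984.3 in FVB-sham, with no overlap. It rose by a mean log2 of 0.71 ± 0.17 (limma SE, adjusted p = 0.011), from 0.38 in sham and 1.04 in uninephrectomised mice. A second probe set gave 0.44 and 0.89, and another, under the filter with signals between 42.0 and 69.2, had a mean of -0.37. The call was lost with median centring (adjusted p = 0.21) and in the fit over single probe sets (adjusted p = 0.14). Cyp1a1 and Cyp1a2, targets of the same receptor, were under the filter with signals of at most 111.3 and 41.1. Of 14 nuclear receptors and partners that regulate P450 genes 10 were above the filter, and 0 passed limma for either factor (0 and 1 at an unadjusted p below 0.05). The receptor gene Ahr itself had signals of 437.3 in OVE-uni, 384.1 in OVE-sham, 430.7 in FVB-uni and 491.8 in FVB-sham, and Ppara had 975.1, 1443, 1464 and 1510.

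The promoters of the 3 genes that passed limma and are held in the RefSeq table are shown with the motifs they hold. They lie at chr10:127047996-127048295 on the plus strand (Cyp27b1), chr17:79715012-79715311 on the minus strand (Cyp1b1) and chr4:115647672-115647971 on the minus strand (Cyp4b1) of GRCm38.p6. Capitals mark matches, on either strand, to CCAAT, to GGGCGG (the GC box) and to GCGTG, the core bound by the aryl hydrocarbon receptor, each printed as its reverse complement. TATAAA and AGGTCA were searched too and have no match in these windows.
Cyp27b1: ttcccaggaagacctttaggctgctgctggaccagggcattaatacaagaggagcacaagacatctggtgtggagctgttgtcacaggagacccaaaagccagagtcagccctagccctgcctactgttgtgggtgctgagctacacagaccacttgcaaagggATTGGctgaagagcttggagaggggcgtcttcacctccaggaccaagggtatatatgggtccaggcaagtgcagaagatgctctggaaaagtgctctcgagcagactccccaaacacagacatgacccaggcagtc
Cyp1b1: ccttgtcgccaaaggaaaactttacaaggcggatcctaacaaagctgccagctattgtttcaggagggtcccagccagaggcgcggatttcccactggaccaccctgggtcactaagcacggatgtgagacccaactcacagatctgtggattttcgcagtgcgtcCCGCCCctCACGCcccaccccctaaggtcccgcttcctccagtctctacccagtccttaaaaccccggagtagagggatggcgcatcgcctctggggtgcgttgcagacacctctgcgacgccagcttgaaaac
Cyp4b1: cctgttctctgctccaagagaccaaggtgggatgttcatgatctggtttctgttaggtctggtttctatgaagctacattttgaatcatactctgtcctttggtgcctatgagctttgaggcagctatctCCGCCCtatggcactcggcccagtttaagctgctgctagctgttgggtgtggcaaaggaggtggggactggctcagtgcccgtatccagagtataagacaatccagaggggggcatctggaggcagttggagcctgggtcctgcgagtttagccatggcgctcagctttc
Cyp27b1 has a CCAAT match, Cyp1b1 a GGGCGG and a GCGTG match and Cyp4b1 a GGGCGG match, all on the opposite strand. The same letters occur in 37.4% (CCAAT), 35.7% (GGGCGG) and 32.4% (GCGTG) of all promoters, so a match is a description only. Of 79 P450 symbols on the platform 57 had a promoter in the table.

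Of the remaining genes above the filter, Cyp26b1, which breaks down retinoic acid, had signals of 212.8 in OVE-uni, 457.5 in OVE-sham, 244.2 in FVB-uni and 205.5 in FVB-sham. OVE-sham alone stood high, with differences of 1.06 against FVB-sham and -1.02 for OVE-uni against OVE-sham. Its relative Cyp26a1 was under the filter (25.3 to 173.9). The orphan enzyme gene Cyp20a1 had a mean difference with diabetes of -0.36 (limma adjusted p = 0.43), with 1237 and 1107 in OVE-uni and OVE-sham, against 1550 and 1459 in FVB-uni and FVB-sham. A second probe set above the filter gave -0.08. Cyp3a13 had signals between 85.7 and 130.5.

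Fewer P450 genes passed with uninephrectomy than with diabetes, and so did fewer of all genes (0.509% against 2.2%). In limma 0 of 32 rose (0.33% of all genes did; at an unadjusted p below 0.05, 2 P450 genes were higher, against 3.19% of all genes, and 1 lower, against 2.48%) and 1 fell, Cyp2d12 (0.178%), which made 1 call in all (0.509%). Without diabetes, 3 genes differed by 2-fold or more after uninephrectomy (1.2% of all genes). They were Cyp24a1, Cyp2c65 and Cyp4a12a, all higher (0.678%), with 0 lower (0.518%). With diabetes, 4 did (2.15%): 1 was higher, Cyp27b1 (1.48%), and 3 were lower, Cyp26b1, Cyp2c65 and Cyp2d12 (0.669%). Every array enters a comparison of each factor, so these differences share arrays with those of diabetes. Cyp2c65 passed the filter only through OVE-sham and FVB-uni, where it was high, so its place in both counts is a description only. The median over the 32 genes was 0.20 in nondiabetic and -0.15 in diabetic mice, beside 0.00 and -0.02 over all genes.

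The electron and heme supply of P450 enzymes gave no call. Of 15 such genes 12 were above the filter, and 0 passed limma for either factor (1 at an unadjusted p below 0.05 for each). Their median difference with diabetes was 0.01 in sham and -0.12 in uninephrectomised mice. Cyb5a, which encodes the electron donor cytochrome b5, had signals of 22838 in OVE-uni, 24769 in OVE-sham, 30779 in FVB-uni and 24710 in FVB-sham, and the ferredoxin gene Fdx1, which serves Cyp27b1 and Cyp24a1, had 7856, 8751, 8214 and 8711. Alas1, the first enzyme of heme synthesis, had a mean difference with diabetes of 0.34 (limma adjusted p = 0.39). Among 8 genes that handle epoxides and eicosanoids 5 were above the filter and 1 rose with diabetes (1.47% of all genes did), the microsomal epoxide hydrolase gene Ephx1 (0.88, limma adjusted p = 0.00012), with 2345 in OVE-uni and 2596 in OVE-sham, against 1199 in FVB-uni and 1470 in FVB-sham. Ephx2, which hydrolyses the epoxides of arachidonic acid, had 4278, 5550, 6045 and 4303 in the same order of groups.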

How the data were processed

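Per the labels' protocols, kidney RNA was extracted with TriZol, pooled from 4 mice a group, and 100 ng was labelled with biotin using a 3′ IVT kit. The deposited table holds linear intensities of 45101 probe sets, 1 value a probe set. Which software the authors used is not given in the sources used here. Leaving out 2% at either end, every array averaged 500.003. The deposited values were thus on a common scale, and no further normalisation was applied. Symbols came from the platform annotation (34945 probe sets with 1 symbol, 932 with several), and 34741 matched a RefSeq table of GRCm38.p6, which changed 0 symbols.

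For each of 18193 genes the brightest probe set by mean log2(intensity + 26.4) was used. limma 3.58.1 in R 4.3.3 (lmFit, eBayes with a trend) was fitted to the 11206 genes above the filter, with diabetes and surgery as factors (1 residual and 57.9 prior degrees of freedom), and tested on simulated data. P450 genes are named in full where they passed limma, were 2-fold different, were among the 8 brightest or make or break down vitamin D and sterols. The members and gene lists were chosen with earlier results of these data known. Alternatives were normalisation, filter, offset, probe set choice, variance trend and thresholds.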

Additional observations from a re-analysis of the deposited data

Results flagged for a closer look

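Among the P450 genes above the expression filter, 2 had differences with diabetes of at least 1.5-fold in both surgery arms and in opposite directions. For Cyp24a1 the diabetes effect in uninephrectomised mice minus that in sham mice was -2.20 on the log2 scale. For Cyp2c65 it was -2.52, and the same number is the uninephrectomy effect in diabetic minus that in nondiabetic mice, where both arms were also at least 1.5-fold and opposite. With 1 array a group these differences between effects were not tested. Both genes had the order of arrays that the spike-in controls had. Cyp2c65 passed the expression filter only through OVE-sham and FVB-uni, the arrays where it was high.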

How the results depend on the processing

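No paired analysis was possible because each group holds 1 array. Of 5 P450 genes that passed limma with diabetes, 0 did without the expression filter, with probe sets averaged by gene or without a variance trend, and 3 did with the stricter filter, which considers 6957 genes in all. For uninephrectomy the count was 1 as reported, 2 with quantile normalisation, with the stricter filter or with an offset at the 40th percentile, and 0 with median centring, without a filter, with the mean of probe sets, with probe sets counted singly (with or without those of several symbols) or without a trend. Counts of genes at least 2-fold different were 4 (OVE-sham against FVB-sham), 6 (OVE-uni against FVB-uni), 3 (FVB-uni against FVB-sham) and 4 (OVE-uni against OVE-sham). Without a filter they were 7, 12, 13 and 9, with the stricter filter 1, 3, 1 and 1. At 1.5-fold 9 genes differed in the first and 7 in the last, and the last was 2 with median centring and 1 with the 40th percentile offset. Mean differences changed sign for Cyp24a1 (diabetes, -0.12) and Cyp27a1 (diabetes, -0.14, and uninephrectomy, 0.067) and Cyp2j5 (uninephrectomy, -0.0060) with the mean of probe sets, and for Cyp1b1 (uninephrectomy, -0.0034) and Cyp2e1 (uninephrectomy, -0.017) with median centring, none of them past the threshold. Median centring moved the median over all genes by between -0.13 and 0.12. Counting probe sets of several symbols was chosen after seeing the data. Beyond the fewer or more genes considered, the cause of these changes was not tested.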
